A study of Mus musculus with 12 samples.

Results

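Deleting an alpha helix from the pioneer factor FoxA2 was examined in the embryonic cells that carried the most of it. The comparison took 4 of the series' 12 ATAC-seq samples, the WT High and the ΔHx High group with 2 samples each, given as 1 pooled peak list per group. After merging lines with the same position and keeping the autosomes, the WT High list held 44195 peaks and the ΔHx High list 36070 peaks, of the 6 lists in all. A peak counted as shared when it overlapped a peak of the other High list by at least 1 bp, and as found in 1 High list only when it did not. ATAC-seq uses a transposase that cuts accessible DNA, so a peak is a stretch where reads from the sorted cells piled up over the background.

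All cells came from mouse embryos at embryonic day 7.5 on a mixed C57Bl6/J x CD-1 background, not sorted by sex and with the extraembryonic portion taken off. WT High cells were homozygous for FoxA2-WT-tagRFP, the normal protein joined through a linker to the red fluorescent protein tagRFP. ΔHx High cells were homozygous for FoxA2-ΔHx-tagRFP, the same fusion without 10 residues of the helix. Both groups therefore carried the tag on every FoxA2 molecule, and neither was compared with untagged cells. "High" means a tagRFP signal above that of heterozygous cells. The Middle gate reached up to the heterozygous maximum and the Negative gate took cells without signal. About 10 embryos were combined for a sort, and 2000 to 5000 cells went into a library. The alleles are germline knock-ins, so all cells of an embryo carried them. The High gate selects cells by FoxA2 level and holds whatever tissues make that much of it.

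FoxA2 is a forkhead transcription factor that binds the sequence TGTTTAC and close variants, also in compacted chromatin, and is therefore called a pioneer factor. In the gastrulating embryo it is made in the anterior primitive streak, the definitive endoderm, the node and the notochord, and embryos without it lack a node and notochord. The helix removed here lies outside the DNA-binding domain and, per the series' title, the study concerns contacts between a pioneer factor and core histones.

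The series gives 1 list per group, so no spread between replicates was available and the genotypes could not be tested against each other. All intervals are 95% Clopper-Pearson intervals, which cover counting error only and treat peaks as independent. The authors' peak score, read as −log10 of a p or q value, grows with depth and was used to rank peaks within a list. Read totals were not used here. The steps of the lowest scores in each list fit a Poisson background, with a mean pileup per base of 0.879 in WT High (range 0.832 to 0.925) and 0.476 in ΔHx High (0.448 to 0.503). The other lists had 1.50 in WT Middle, 0.786 in ΔHx Middle, 1.08 in WT Negative and 1.57 in ΔHx Negative. Peak height is given below as fold over this fitted background. Shared peaks themselves stood at a median of 12.5-fold in WT High and 18.9-fold in ΔHx High. Heights of 1 site in both lists are therefore to be read beside this difference between the lists. The lowest peak listed stood at 4.55-fold in WT High and at 6.30-fold in ΔHx High, so "no ΔHx High peak" means no peak of about 6.30-fold or more. The fitted pileup of these lowest peaks was 4 in WT High and 3 in ΔHx High. Weak peaks thus rest on few reads and do not show in how many cells a site was open.

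Open chromatin was largely common to both genotypes where it was strong, and the part found in only 1 list grew as peaks became weaker. In the whole lists, 18846 WT High peaks (42.6%) had no ΔHx High counterpart, and 10998 ΔHx High peaks (30.5%) had no WT High counterpart. With both lists cut to equal length the shares were 35.5% and 35.8%, and with the same minimum height 32.9% and 37.6%, so the order of the genotypes depended on how the lists were matched. Among the top 20000 peaks by score, looked up in the whole other list, 3821 WT High peaks were found in WT alone (19.1%, interval 18.6 to 19.7%). On the other side 2657 of the top 20000 ΔHx High peaks were found in ΔHx alone (13.3%, interval 12.8 to 13.8%). The last of the top 20000 stood at 10.2-fold in WT High and at 12.6-fold in ΔHx High, with 2575 and 3320 peaks tied at that score.

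By rank, the WT-only share was 6.48% in the 5000 strongest WT peaks, 13.1% in the next 5000, and 77.7% in the weakest block. The ΔHx-only share went from 1.86% through 6.40% to 64.8%. These rank blocks put the WT-only share above the ΔHx-only share, while blocks matched on height did not do so throughout. Between 6- and 10-fold over background, 54.6% of WT peaks and 60.8% of ΔHx peaks were found in 1 list only, and between 10- and 15-fold 30.9% and 37.4%. Above 30-fold the order turned, with 6.93% of WT peaks (159 of 2294) against 3.32% of ΔHx peaks (137 of 4128) between 30- and 50-fold. From 50-fold up the shares were 3.12% (31 of 995) and 1.38% (39 of 2828).

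**Figure D1:**
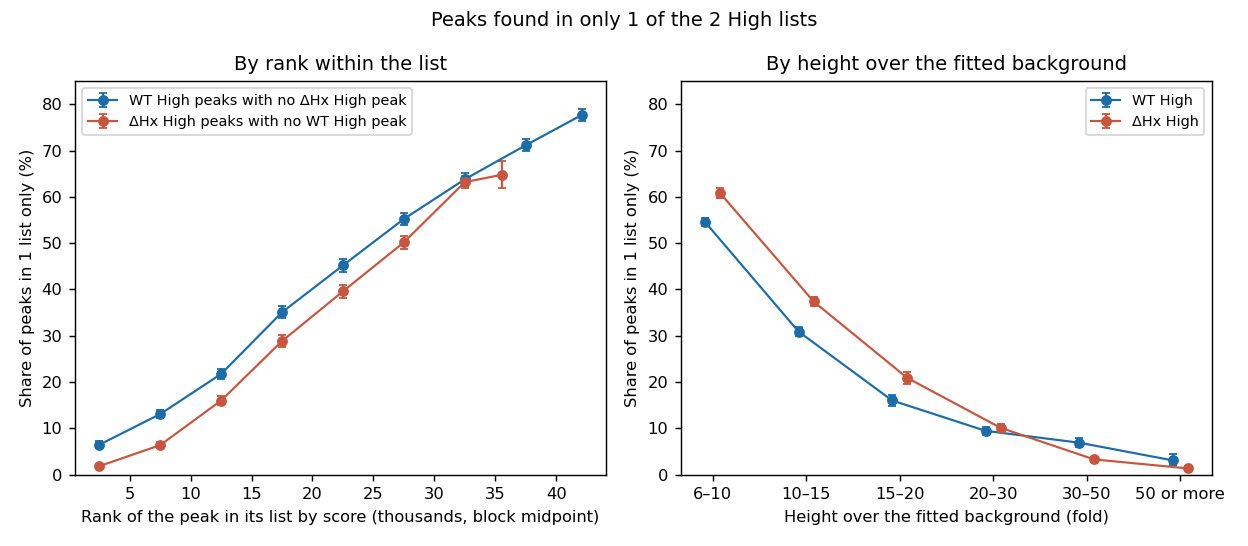
Share of autosomal peaks found in only 1 of the High lists (y axis, %), by rank of the peak in its own list in blocks of up to 5000 (left, x axis in units of 1000 ranks) and by height over the fitted background (right, x axis in fold). Blue points are WT High peaks, red points ΔHx High peaks, bars 95% Clopper-Pearson intervals; at equal rank blue lies above red, by the least at ranks 30001 to 35000 (63.8% and 63.2%), and at equal height blue lies below red between 6- and 20-fold.

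Peaks of 1 genotype were narrower than shared peaks of the same list. Among the top 20000, WT-only peaks had a median width of 452 bp against 645 bp for shared WT peaks, and ΔHx-only peaks 378 bp against 653 bp. Wide peaks of at least 1 kb differed between the sides. They made up 366 of the WT-only peaks (9.58%) and 100 of the ΔHx-only peaks (3.76%), beside 18.3% and 20.4% of the shared peaks. Of the 366 wide WT-only peaks, 167 (45.6%) also had a peak in all 4 Middle and Negative lists, both ΔHx lists among them, and 12 touched a promoter window. Of the 100 wide ΔHx-only peaks, 42 were in all 4 of those lists and 26 touched a promoter window. Wide shared peaks were in all 4 in 89.8% (WT High) and 90.3% (ΔHx High). On the autosomes with promoter windows, 53.0% and 63.0% of the wide shared peaks touched one.

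The Middle and Negative lists come from other sorted cells and show how often a site missing from 1 High list was open elsewhere in the same genotype. Of the top WT-only peaks, 56.4% overlapped a WT Middle peak and 45.6% a ΔHx Middle peak, against 88.6% and 87.7% of shared peaks. A ΔHx Middle or ΔHx Negative peak lay at 70.3% of the top WT-only sites, against 94.8% of the shared WT High peaks. Most of these sites were thus accessible in some ΔHx cells, though less often than shared ones. Of the top ΔHx-only peaks, 43.2% overlapped a WT Middle peak and 40.1% a ΔHx Middle peak. A WT Middle or WT Negative peak lay at 57.1% of them, against 92.0% of the shared ΔHx High peaks. No other list held 730 of the WT-only peaks (19.1%) and 731 of the ΔHx-only peaks (27.5%). Of the shared peaks, 3.02% in WT High and 3.47% in ΔHx High were in none of the 4 Middle and Negative lists.

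**Figure D2:**
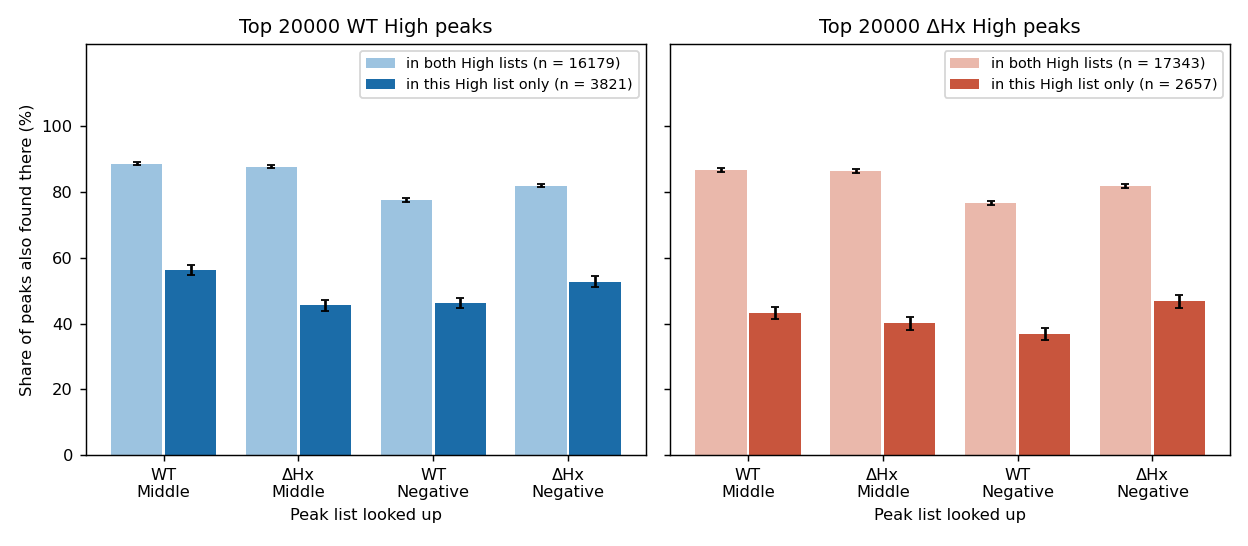
Share of the top 20000 High peaks (y axis, %) that overlap a peak in each Middle and Negative list (x axis), for WT High on the left and ΔHx High on the right. Light bars are peaks in both High lists, dark bars peaks in 1 High list only, and error bars 95% Clopper-Pearson intervals; dark bars lie between 36.9% and 56.4%, light bars between 76.7% and 88.6%.

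A peak in the same genotype's Middle list and not in the other's, with the Negative lists left aside, was more frequent among WT-only peaks. Whether the gates of a genotype shared embryos or sorts was not known here, so genotype and embryo pool cannot be told apart. Of the 3821 top WT-only peaks, 844 had a WT Middle and no ΔHx Middle peak (22.1%, interval 20.8 to 23.4%), and 432 had the opposite (11.3%, interval 10.3 to 12.4%). The shared WT High peaks were nearly even, 6.56% against 5.71%. The Middle lists differ in length, 44539 peaks in WT and 37611 in ΔHx. With both cut to the same length by score the WT-only values were 20.1% and 13.6%, and the shared ones 5.79% and 7.76%, so the tilt to WT Middle among WT-only peaks remained. Of the 2657 top ΔHx-only peaks, 372 had a ΔHx Middle and no WT Middle peak (14.0%, interval 12.7 to 15.4%) and 454 the opposite (17.1%, interval 15.7 to 18.6%). With Middle lists of equal length that order turned to 16.5% against 14.4%. The shared ΔHx High peaks gave 6.58% against 6.94% with the whole Middle lists and 8.78% against 6.13% with lists of equal length.

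The ΔHx-only peaks lay at promoters more often than the WT-only peaks. A promoter window here is RefSeq's stretch from 250 bases before to 50 bases after an annotated transcription start on GRCm38.p6, the assembly called mm10, on the 18 autosomes for which windows were used. It was touched by 166 of 3702 top WT-only peaks (4.48%, interval 3.84 to 5.20%) and by 355 of 2568 top ΔHx-only peaks (13.8%, interval 12.5 to 15.2%). Shared peaks touched one in 40.3% (WT High) and 42.5% (ΔHx High). The median distance to the nearest annotated start was 25.8 kb for WT-only and 17.0 kb for ΔHx-only peaks, against 4.31 and 3.33 kb for the shared ones. Sites more than 100 kb from any protein-coding gene made up 14.8% of the WT-only and 9.19% of the ΔHx-only peaks.

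The same order was seen at matched fold over each list's own background. Between 15- and 20-fold over background, 4.03% of WT-only peaks (25 of 620) and 14.0% of ΔHx-only peaks (111 of 793) touched a promoter window. Between 20- and 30-fold these were 2.45% (9 of 367) and 17.1% (96 of 563), while the shared peaks of that height gave 44.3% in WT and 38.9% in ΔHx. Of the 30 WT-only peaks from 50-fold up on these autosomes, 1 touched a promoter, and of the 38 such ΔHx-only peaks none did, which allows a share of up to 9.25%. The Middle and Negative lists had the same order. Peaks in only 1 Middle list touched a promoter in 5.90% (WT) and 10.3% (ΔHx) of the top 20000, and in the Negative lists the values were 5.97% and 9.69%. The order of the genotypes was thus the same at all 3 RFP levels, and its cause was not tested.

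**Figure D3:**
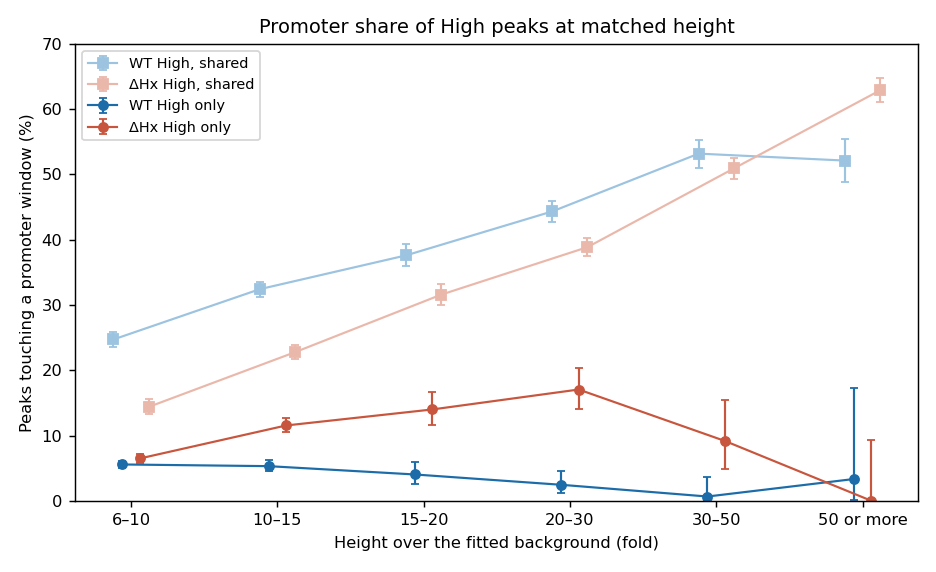
Share of High peaks that touch a RefSeq promoter window (y axis, %) by height over the fitted background (x axis, fold). Circles are peaks in 1 High list only (blue WT, red ΔHx), squares shared peaks, and bars 95% Clopper-Pearson intervals; red circles rise from 6.48% to 17.1% up to 30-fold while blue circles fall from 5.57% to 2.45%.

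Counted by promoter, 9480 of 20085 windows of protein-coding genes (47.2%) held a peak in both High lists. WT High alone had 861 (4.29%) and ΔHx High alone had 1236 (6.15%). A peak of the other genotype lay within 1 kb of 242 of those 861 windows and of 407 of those 1236, which leaves 619 (3.08%) and 829 (4.13%) without one. Counted by gene, 674 of 16457 genes with a window (4.1%) had a promoter peak in WT High alone and 942 (5.72%) in ΔHx High alone. Base composition, which the overlap rule did not use, differed between the classes. The median number of CG dinucleotides in the 300 bases was 23 in windows with a peak in both lists, 14 in WT High alone, 21 in ΔHx High alone and 3 in windows with neither. Windows in ΔHx alone also had the higher median at the Middle level (21 against 17) and at the Negative level (19 against 17).

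The strongest top-20000 peaks of 1 genotype at the promoter of a protein-coding gene are shown with CG dinucleotides in capitals. The 250 bases before the RefSeq start are given 5′ to 3′ on the strand of the gene (GRCm38.p6).
Mxra8, chr4:155839430-155839679, plus strand: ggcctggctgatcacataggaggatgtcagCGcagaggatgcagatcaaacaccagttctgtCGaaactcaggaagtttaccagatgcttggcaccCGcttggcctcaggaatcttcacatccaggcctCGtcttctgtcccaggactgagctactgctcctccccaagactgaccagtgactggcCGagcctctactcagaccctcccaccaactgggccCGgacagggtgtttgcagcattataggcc
Taco1, chr11:106065841-106066090, plus strand: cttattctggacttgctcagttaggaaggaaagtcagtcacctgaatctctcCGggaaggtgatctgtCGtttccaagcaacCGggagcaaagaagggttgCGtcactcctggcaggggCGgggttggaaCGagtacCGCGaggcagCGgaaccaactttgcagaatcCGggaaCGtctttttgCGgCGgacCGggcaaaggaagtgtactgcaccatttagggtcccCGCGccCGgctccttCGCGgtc
Nsmce4a, chr7:130547382-130547631, minus strand: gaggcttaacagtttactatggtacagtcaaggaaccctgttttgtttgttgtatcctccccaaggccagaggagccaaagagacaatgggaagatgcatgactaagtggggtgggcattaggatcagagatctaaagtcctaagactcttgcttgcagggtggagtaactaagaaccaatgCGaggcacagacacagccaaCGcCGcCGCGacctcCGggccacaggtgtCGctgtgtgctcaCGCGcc
Ccnb2, chr9:70421555-70421804, minus strand: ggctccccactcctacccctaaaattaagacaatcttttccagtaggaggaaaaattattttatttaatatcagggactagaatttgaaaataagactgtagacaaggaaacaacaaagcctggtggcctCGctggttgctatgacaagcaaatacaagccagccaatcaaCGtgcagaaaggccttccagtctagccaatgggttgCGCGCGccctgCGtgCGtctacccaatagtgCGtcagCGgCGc
Mxra8 and Taco1 were the strongest WT-only cases at protein-coding genes, with scores of 25.1 and 20.8 in WT High. Nsmce4a, a subunit of the SMC5/6 DNA repair complex, and Ccnb2, cyclin B2, were the strongest ΔHx-only cases, with scores of 24.9 and 23.3 in ΔHx High. The WT Middle and the ΔHx Middle list each held a peak at Taco1, Nsmce4a and Ccnb2, and Mxra8 had one in WT Middle and in both Negative lists. These upstream stretches hold 6 (Mxra8), 19 (Taco1), 9 (Nsmce4a) and 10 (Ccnb2) CG dinucleotides, so single cases do not follow the medians. Taller WT-only peaks, 1 of 153 between 30- and 50-fold and the 1 of 30 from 50-fold up, touched windows of genes that are not protein-coding.

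The forkhead sequence TGTTTAC, searched on both strands, was rare in promoter windows of every class. It stood in 3.71% of all 31396 windows, in 2.53% of those with a peak in both High lists, in 3.77% of WT High alone (44 of 1168, interval 2.75 to 5.02%) and in 3.28% of ΔHx High alone (51 of 1555, interval 2.45 to 4.29%). The intervals of the last 2 classes overlap, and windows with neither peak had the highest share, 4.46%. The looser TNTTTAC, which includes TGTTTAC, gave 10.6% in WT High alone (interval 8.91 to 12.5%) and 7.40% in ΔHx High alone (interval 6.14 to 8.81%), which do not overlap. It stood in 12.4% of all windows, in 7.04% of those with both peaks and in 16.1% of those with neither. This sequence is rich in A and T, and the classes differ in base composition. Median GC content of protein-coding windows was 58.0% in WT High alone and 62.3% in ΔHx High alone. It was 62.7% with both peaks and 48.3% with neither, so shares of TNTTTAC were lower where GC content was higher. Windows matched on composition were not compared. No genome sequence was used here, so distal peaks were not searched.

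At Foxa2 itself (chr2:148042877-148046969) both High lists held a broad set of peaks, 16 each assigned to the gene as the nearest within 100 kb, and 4 of the 16 on either side were found in 1 list only. The peak over its promoters stood at 25.0-fold over background in WT High, 60.9 in ΔHx High, 18.1 in WT Middle, 30.5 in ΔHx Middle, 14.8 in WT Negative and 12.1 in ΔHx Negative. It was thus present in all 6 lists, including cells sorted as FoxA2-negative, and highest in ΔHx High. A peak 73.7 kb from the gene (chr2:147968073-147969177) stood at 43.2-fold in WT High and 77.7 in ΔHx High, and at 12.0 and 12.8 in the Negative lists. Other top-20000 WT peaks at the gene were higher in WT High. These lay 0.698 kb (23.9-fold against 10.5 in ΔHx High), 52.6 kb (19.3 against 8.40) and 70.3 kb away (15.9 against 10.5). The one 5.76 kb away stood at 22.7-fold in WT High and 25.2 in ΔHx High, so the sites of the locus were mixed. None of the 6 top-20000 WT peaks at Foxa2 was WT-only. Of the 10 top-20000 ΔHx peaks 2 were ΔHx-only. The one at chr2:148068991-148069220 (14.7-fold) was in no other list, and the one at chr2:147984632-147985472 (12.6-fold) was also in WT Middle (12.7) and ΔHx Middle (11.4).

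Genes of known tissues were taken as 14 lists with 303 distinct genes, and each peak went to its closest protein-coding gene, up to 100 kb away. Among all peaks so assigned, 17.6% of the top WT peaks and 12.8% of the top ΔHx peaks were found in 1 list only (40.6% and 29.9% over the whole lists). Peaks near a gene are not independent and no difference was tested. These lists name loci and not the cells of the sort, and a smaller share of a cell type and less accessibility in each cell cannot be told apart in sorted bulk cells.

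The transcription factors of the definitive endoderm had the larger share on the mutant side when each peak went to its closest gene. Of their top WT peaks 6 of 51 were WT-only (11.8%, interval 4.44 to 23.9%), and of their top ΔHx peaks 16 of 70 were ΔHx-only (22.9%, interval 13.7 to 34.4%). Counted by gene, 12 of the 22 had more ΔHx-only and 3 had more WT-only peaks of the top 20000, beside 1671 and 2288 of the 16071 genes with a peak. These gene counts are not matched for peak number. The 22 genes held 51 top WT and 70 top ΔHx peaks, and the 16071 genes 18380 and 18749. The difference between the sides was absent over the whole lists (33.1% WT-only and 34.0% ΔHx-only). It was also absent when a peak counted for every gene within 100 kb, with 16 of 96 WT-only (16.7%) and 18 of 109 ΔHx-only (16.5%). Of the 16 ΔHx-only sites, 10 had a peak in WT Middle (43.8% over all genes) and 11 in ΔHx Middle (41.1% over all genes), and 5 each in WT Negative (37.8% over all genes) and ΔHx Negative (47.3% over all genes). Most of these endoderm sites were thus also listed in wild-type cells with less tagRFP.

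Foxa1, the closest relative of Foxa2, had the highest of them. Its site 13.1 kb away (chr12:57527097-57527573) stood at 35.7-fold in ΔHx High, 5.35 in WT Middle and 12.7 in ΔHx Middle, and in no Negative list. Gata4, a zinc finger factor of endoderm and heart, had one inside the gene at 16.8-fold that was also in the 4 Middle and Negative lists. Foxa3, the third FoxA gene, had a site 0.65 kb away at 16.8-fold, with 8.69 in WT Middle and 17.8 in ΔHx Middle. These 3 sites were accessible in Middle cells of both genotypes and absent from the WT High list alone among the RFP-positive groups. Those of Gata4 and Foxa3 were chosen after their values were seen and do not stand for all 16. Of the 16, 10 had a peak in WT Middle, 11 in ΔHx Middle, and 2 had none in the 4 Middle and Negative lists. Grhl2, an epithelial factor, and Sox4 each had 2 ΔHx-only sites, and those of Grhl2 had a ΔHx Middle and no WT Middle peak.

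On the wild-type side of that list stood Otx2 and Gsc, homeodomain factors of the anterior mesendoderm and head organizer, with 2 WT-only sites each and no top ΔHx-only site. The stronger Otx2 site (chr14:48708012-48708321, 40.4 kb away) stood at 21.6-fold in WT High and in no other list. The other one, at 13.6-fold, had 8.02 in WT Middle and 14.0 in ΔHx Middle. The Gsc sites stood at 12.5- and 11.4-fold in WT High, neither in ΔHx Middle. Ovol2, a zinc finger factor of epithelia, had a WT-only site at 13.6-fold that was in WT Middle (14.7) and ΔHx Middle (22.9).

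Genes of the endoderm's epithelial surface had few sites of 1 genotype, 6 of 50 top WT peaks (12.0%) and 2 of 55 top ΔHx peaks (3.64%), both under the share over all genes. With every gene within 100 kb the ΔHx-only share was 11.4%. Emb, coding for the membrane glycoprotein embigin, had 2 WT-only sites. One of them (chr13:117152357-117152693) stood at 25.0-fold in WT High and in no other list. Cdh1, the gene of E-cadherin, had a WT-only site inside the gene at 15.9-fold in no other list, and 10 WT and 9 ΔHx peaks in all. Tmprss2, a membrane protease gene, had a ΔHx-only site 0.50 kb away at 27.3-fold.

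Regulators and products of later gut organs had 16 top WT and 21 top ΔHx peaks, of which 3 (18.8%) and 6 (28.6%) were found in 1 list only, or 9.76% and 17.3% with every gene within 100 kb. Pdx1, the regulator of pancreas and duodenum, had a ΔHx-only peak over its promoter (chr5:147269992-147270272) at 25.2-fold, and the nearest WT High peak lay 29064 bp from the window. WT cells were not without it, with 14.0-fold in WT Middle and 12.0 in WT Negative. ΔHx Middle had no peak over the 250 bases before the Pdx1 start, so the genotypes stood the other way at that level. Alb, the albumin gene, had a ΔHx-only site 29.3 kb away at 14.7-fold, with 13.4 in WT Middle and 19.1 in ΔHx Middle. On the WT side Hnf4a, a nuclear receptor of liver and visceral endoderm, had a WT-only site at 10.2-fold with 14.7 in WT Middle and 25.4 in ΔHx Middle.

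Node and notochord genes were near the share over all genes on both sides, 14 of 68 top WT peaks (20.6%) and 10 of 73 top ΔHx peaks (13.7%). Sox5, a cartilage and notochord factor, had 3 WT-only sites. The strongest, at 28.4-fold and 2576 bp wide (chr6:144667341-144669916), was in all 4 Middle and Negative lists. Sox9, another Sox factor of the notochord and its sheath, had 1 WT-only and 2 ΔHx-only sites. Of the latter the peak within the gene (chr11:112784473-112784832) stood at 23.1-fold in ΔHx High, 16.7 in WT Middle and 20.3 in ΔHx Middle. Noto, a homeobox gene of the node, had a WT-only site at 10.2-fold, with 8.02 in WT Middle and none in ΔHx Middle.

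Hedgehog signalling starts from ligand made in node, notochord and gut. Its genes gave 6 of 43 top WT peaks (14.0%) and 6 of 49 top ΔHx peaks (12.2%). Among them Hhat, which attaches a fatty acid to the ligand, had 3 WT-only sites, and the receptor gene Ptch1 had 2, one at 22.7-fold (chr13:63578939-63579457) that was in neither Middle list. Disp1, needed to release the ligand, had 2 ΔHx-only sites. One stood at 16.8-fold and was in all 4 other lists, with 36.0 in WT Negative.

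Genes of the Nodal pathway, which patterns the streak and sets left and right, had the largest WT-only share of the 14 lists. Of their top WT peaks 10 of 30 were WT-only (33.3%, interval 17.3 to 52.8%) and of their top ΔHx peaks 1 of 22 was ΔHx-only (4.55%, interval 0.115 to 22.8%). The WT-only interval reaches down to the share over all genes, and with every gene within 100 kb the WT-only share was 19 of 100 (19.0%). Of the 10 sites, 5 had a peak in WT Middle (56.7% over all genes), 5 in ΔHx Middle (46.2%), 6 in WT Negative (46.4%) and 6 in ΔHx Negative (53.4%), all near those shares. Cfc1, coding for the Nodal co-receptor Cryptic, had 2 of the 10. The one over its promoter (chr1:34535367-34535663) stood at 11.4-fold in WT High, 6.69 in WT Middle and 16.5 in ΔHx Middle, and a ΔHx High peak lay 702 bp from the promoter window. Smad3, a transducer of the signal, had 2 WT-only sites at 12.5- and 10.2-fold in no other list. The further transducer genes Smad4 and Smad2 had 2 and 1 of the 10, with scores of up to 29.5 and 22.2 in WT High. Nodal itself had no top WT-only site. The single ΔHx-only site lay 8.34 kb from Lefty1, a Nodal antagonist, at 21.0-fold, with 9.36 in WT Middle and 11.4 in ΔHx Middle. Lefty1 also had a WT-only site, 0.25 kb away at 10.2-fold, so 2 neighbouring sites of the gene went opposite ways.

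The lateral and cardiac mesoderm genes had 13 of 49 top ΔHx peaks in ΔHx alone (26.5%, interval 14.9 to 41.1%) and 5 of 33 top WT peaks in WT alone (15.2%). Of these 13 sites 7 had a peak in WT Middle (43.8% over all genes), 4 in ΔHx Middle (41.1%), 7 in WT Negative (37.8%) and 9 in ΔHx Negative (47.3%). Meis2, a TALE homeodomain factor, had 3 of them, and 11 top ΔHx peaks against 3 top WT peaks. The cardiac regulators Hand2 and Nkx2-5 had 1 each, at 16.8- and 14.7-fold. The Nkx2-5 site over the promoter was in no other list. On the other side the blood and endothelium genes had 6 of 28 WT-only (21.4%) and 2 of 24 ΔHx-only. Runx1, the regulator of blood stem cell formation, had 2 WT-only sites, the stronger at 29.6-fold with 6.02 in WT Middle.

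Visceral endoderm genes had 4 of 15 WT-only sites (26.7%) and 0 of 15 ΔHx-only, which allows up to 21.8%. The 4 sites, at Cubn, Lrp2, Apoe and Hnf4a, were in both Middle lists. That of Cubn, an endocytic receptor gene (chr2:13343693-13344521), stood at 28.4-fold in WT High, 66.9 in WT Middle and 12.7 in ΔHx Middle. Genes of the primitive streak and nascent mesoderm had 4 of 27 WT-only and 7 of 33 ΔHx-only sites, those of epiblast and neuroectoderm 7 of 29 and 8 of 41, and those of extraembryonic ectoderm and trophoblast 5 of 19 (26.3%) and 7 of 23 (30.4%). With every gene within 100 kb the last list had 17.4% and 16.7%, and epiblast and neuroectoderm had a ΔHx-only share of 12.6%. The genes of cilia had 2 of 26 and 2 of 27, and a WT-only share of 14.5% with every gene within 100 kb. Ubiquitously active genes had 4 of 39 WT-only (10.3%) and 0 of 35 ΔHx-only, which allows up to 10.0%. With every gene within 100 kb the ΔHx-only shares of the visceral endoderm and ubiquitous lists were 11.7% and 7.45%.

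**Figure D4:**
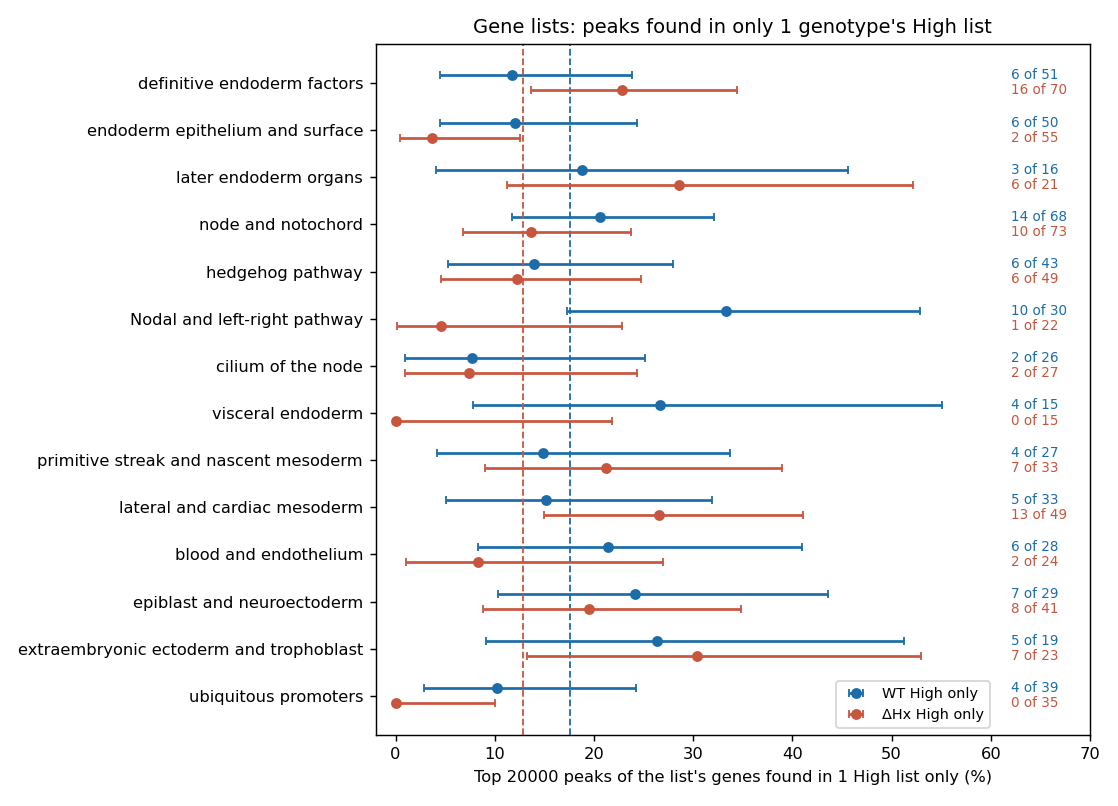
Share of the top 20000 High peaks nearest to the genes of each list that were found in 1 High list only (x axis, %; lists on the y axis), blue for WT High and red for ΔHx High. Bars are 95% Clopper-Pearson intervals, counts stand at the right, and dashed lines mark the shares over all genes, 17.6% (blue) and 12.8% (red); the red intervals of the definitive endoderm factors (13.7 to 34.4%) and of the lateral and cardiac genes (14.9 to 41.1%) lie above their line, as does that of extraembryonic ectoderm and trophoblast (13.2 to 52.9%), those of endoderm epithelium (0.443 to 12.5%) and of ubiquitous genes (0 to 10.0%) lie below it, and the blue interval of the Nodal list (17.3 to 52.8%) reaches its line.

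Promoters of the listed genes were found in 1 genotype alone about as often as promoters in general. Of the 277 windows of 220 listed genes, 15 held a peak in WT High alone (5.42%, with 4.29% over all genes) and 19 in ΔHx High alone (6.86%, with 6.15% over all genes). For 9 of the 15 a ΔHx High peak lay within 1 kb, among them Eomes, Epcam, Nodal and Cfc1, and for 3 of the 19 a WT High peak did. Foxa3 was one of these, with 39.9-fold over the window in ΔHx High and a WT High peak 339 bp away. This left 6 windows without a near peak of the other genotype on the WT side (2.17%, with 3.08% over all genes) and 16 on the ΔHx side (5.78%, with 4.13% over all genes). The 6 were those of Rab25, Apoa1, Pdzk1, Mesp1, Neurog3 and Noto, at 4.55- to 10.2-fold. The 16 were those of Pdx1, Nkx6-2, Cdx2, Foxc1, Nkx2-5, Ccdc39, Pcsk6, Cobl, Disp1, Sox2, Cd34, Evx1, Krt7, Sox6, Ascl2 and Scube2. Of these, the windows of Nkx2-5, Pcsk6, Krt7 and Ascl2 held a peak in no list but ΔHx High, that of Ccdc39 had others in the Middle lists alone, and the other 11 had one in a Negative list. Of the 6 WT windows, that of Mesp1 held a peak in no list but WT High. Of the 21 ubiquitous genes with a window, 19 had a peak in both High lists and none in 1 list alone.

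**Figure D5:**
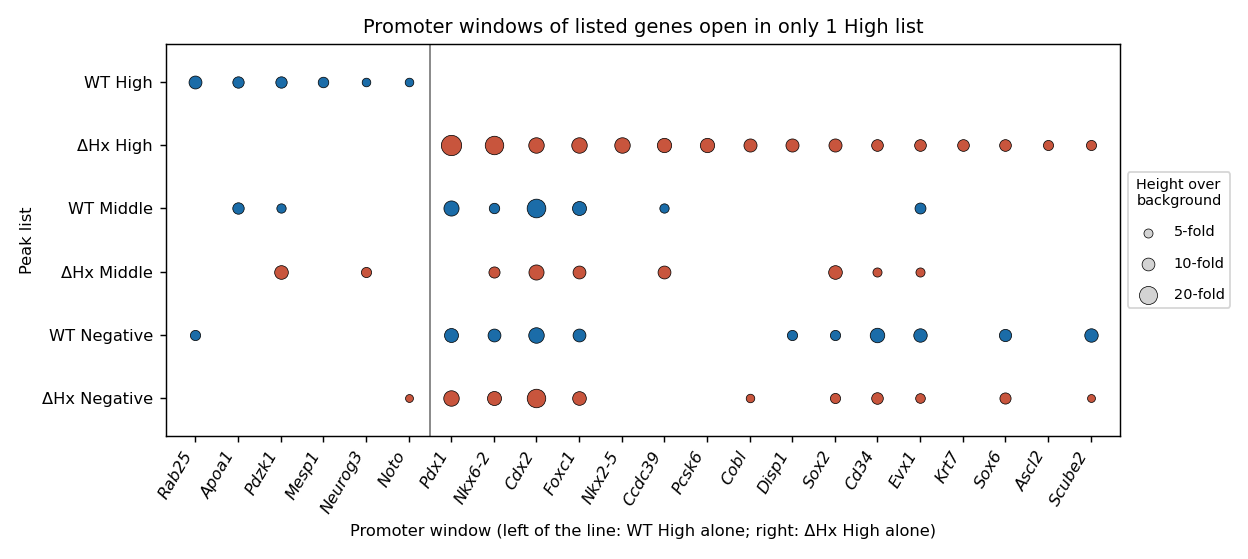
Promoter windows of listed genes with a peak in only 1 High list and no peak of the other High list within 1 kb (x axis), and their peaks in the 6 lists (y axis). The area of a point is the height over the fitted background in fold and no point means no peak; the 6 windows of WT High lie left of the line, the 16 of ΔHx High right of it, and Pdx1 has the tallest at 25.2-fold.

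The upstream bases of 4 of these promoters are given to show the cases at either end, in the same way as above with CG in capitals. Rab25, a GTPase of epithelial membrane traffic, was the strongest WT window. Pdx1 was the strongest ΔHx window, and Nkx2-5 was in ΔHx High alone of all 6 lists. In Cdx2, a regulator of the hindgut, trophoblast and posterior body, capitals mark instead the forkhead sequence in its reverse complement.
Rab25, chr3:88548280-88548529, minus strand: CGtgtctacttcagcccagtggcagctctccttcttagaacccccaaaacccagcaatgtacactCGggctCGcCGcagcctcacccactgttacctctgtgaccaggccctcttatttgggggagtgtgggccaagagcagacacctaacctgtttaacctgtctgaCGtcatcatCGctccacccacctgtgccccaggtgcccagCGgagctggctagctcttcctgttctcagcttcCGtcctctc
Pdx1, chr5:147269847-147270096, plus strand: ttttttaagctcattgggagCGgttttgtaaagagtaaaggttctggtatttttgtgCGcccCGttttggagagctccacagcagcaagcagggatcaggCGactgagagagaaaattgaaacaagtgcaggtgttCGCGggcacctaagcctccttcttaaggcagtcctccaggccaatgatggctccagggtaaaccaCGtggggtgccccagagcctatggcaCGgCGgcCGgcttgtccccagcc
Nkx2-5, chr17:26841566-26841815, minus strand: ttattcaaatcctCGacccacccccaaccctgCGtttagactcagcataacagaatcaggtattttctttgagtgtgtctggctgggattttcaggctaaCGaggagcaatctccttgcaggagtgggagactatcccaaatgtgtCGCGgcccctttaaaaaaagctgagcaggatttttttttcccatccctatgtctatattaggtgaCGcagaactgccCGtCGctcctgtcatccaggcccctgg
Cdx2, chr5:147307250-147307499, minus strand: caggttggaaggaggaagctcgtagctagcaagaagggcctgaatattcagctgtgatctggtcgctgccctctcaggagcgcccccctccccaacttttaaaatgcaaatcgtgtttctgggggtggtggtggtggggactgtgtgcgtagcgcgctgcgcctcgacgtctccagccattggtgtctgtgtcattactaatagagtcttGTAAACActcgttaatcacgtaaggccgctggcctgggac
The Cdx2 window stood at 14.7-fold in ΔHx High, 21.4 in WT Middle, 14.0 in ΔHx Middle, 14.8 in WT Negative and 21.1 in ΔHx Negative. WT High was the only list without a peak there, and its nearest peak lay 2014 bp away.

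The strongest single regions of 1 genotype mostly had a peak of the other genotype at another RFP level. Of the 10 highest WT-only peaks outside the densest 1-Mb bins, 8 were in all 4 Middle and Negative lists, and of the 10 highest ΔHx-only peaks 9 were in a WT Middle or WT Negative list. Over the top 20000 the same held for 18.6% of WT-only and 57.1% of ΔHx-only peaks. The highest WT-only peak, 15.5 kb from Adgre5 (chr8:83756768-83756985), was 218 bp wide and stood at 472-fold in WT High and between 211- and 352-fold in the 4 Middle and Negative lists. Why ΔHx High alone had no peak there was not tested. Another of the 10, within Trip4 (chr9:65867710-65870545), was 2836 bp wide with 5 summits. The peak within Lepr (chr4:101769366-101770439) came closest to WT High alone, at 68.2-fold against 4.68 in WT Middle and 4.47 in ΔHx Negative. On the ΔHx side the peak within Pepd (chr7:34958172-34958453), a peptidase gene, stood at 147-fold in ΔHx High and in no other list. The highest, on chromosome 17 with no protein-coding gene within 100 kb, stood at 414-fold in ΔHx High, 201 in ΔHx Middle, 8.69 in WT Middle and 12.1 in ΔHx Negative.

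A stricter pattern than the comparison of the Middle lists above also left out the other genotype's Negative list. A peak in the same genotype's Middle list and in no list of the other genotype was seen for 297 top WT-only peaks (7.77%) and 241 top ΔHx-only peaks (9.07%), against 1.79% and 3.50% of the shared peaks of each list. The larger share was on the ΔHx side here, unlike with the whole Middle lists alone, and the shared peaks had the same order. The intervals of the WT-only and ΔHx-only shares, 6.94 to 8.67% and 8.01 to 10.2%, overlap. The Negative lists differ in length, 48244 peaks in ΔHx and 38439 in WT. Lists of equal length were not tried for this pattern, so what list length adds to the order was not tested. The strongest WT case, chr16:7611299-7611687 with no protein-coding gene within 100 kb, stood at 54.6-fold in WT High and 11.4 in WT Middle. The one within Prg4, the lubricin gene (chr1:150454481-150455816), stood at 36.4-fold in WT High, 21.4 in WT Middle and 17.5 in WT Negative, so that it was present in all WT lists and absent from all ΔHx lists. The strongest ΔHx case lay within Ano2, a chloride channel gene (chr6:125876915-125877277), at 58.8-fold in ΔHx High and 29.3 in ΔHx Middle. The one within Wwc1, which codes for the Hippo pathway protein KIBRA (chr11:35943900-35944475), stood at 35.7-fold in ΔHx High, 40.7 in ΔHx Middle and 10.8 in ΔHx Negative.

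Over all genes, the loci with the most top-20000 WT-only sites included the zinc finger genes Zfp993 (8), Zfp980, Zfp978 (5 each) and Zfp600 (4), and Gm10354 (5). Zinc finger genes of this kind occur in near-identical copies, so their peaks are uncertain. Snx29, a sorting nexin gene, had 5 of its 6 top WT peaks in WT alone, and Plcb1, a phospholipase gene, 5 of 8. Nrxn3, a synaptic adhesion gene, had 4 of 13, Grip1 4 of 6 and Ulk4 4 of 7. On the ΔHx side Arhgap26 had 6 of 9 top ΔHx peaks in ΔHx alone. Next by count were Lifr, the receptor gene of leukaemia inhibitory factor (5 of 6), Elf2 (5 of 7) and Creb3l1 (5 of 8). Dpp6 (4 of 6), Fmnl2, Camk1d and Dab1 (4 of 7 each), Pkp4 (4 of 8) and Magi1 (3 of 6) followed. Some of these loci were mixed. Magi1 also had 3 of 6 top WT peaks in WT alone, Fmnl2 2 of 5, Dab1 2 of 4 and Arhgap26 1 of 2. From the WT side, Plcb1 also had 2 of 5 top ΔHx peaks in ΔHx alone and Ulk4 2 of 6. The other loci named here had no top peak of the other genotype alone.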

How the data were processed

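ATAC-seq peaks of 6 groups of 2 samples were used as deposited, 1 pooled list per group. Per the submitters' processing notes, STAR 2.5.2a, MACS2 and mm10 were used; settings are not stated there. The authors' score in the deposited files was read as a −log10 p or q value, inferred from its steps. Which of both it is was not settled, and fitted heights and the alternative with a common score minimum, which set lists side by side, rest on this reading.

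Lines with the same position were merged with the highest score kept, and autosomes were used. Background was fitted to the 40 lowest distinct scores as a Poisson mean (tested on simulated data), and height is pileup over that mean. Peaks were given to the nearest RefSeq protein-coding gene within 100 kb. Intervals are Clopper-Pearson at 95% (scipy 1.17.1, pandas 2.3.3, Python 3.11.15). Of 303 distinct listed genes 302 were found by symbol. Promoter windows covered 18 of 19 autosomes and 81.7% of the protein-coding genes there.

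Named genes were Foxa2, per list up to 4 members with the most top-20000 peaks in either genotype alone, and the 10 such genes overall. Named regions were the 10 highest on each side, and 10 that the same genotype's Middle list repeats. Gata4, Foxa3, the distal Noto and Nkx2-5 sites and the listed promoter windows lie outside this rule and were chosen after their values were seen. Members and gene lists were chosen with earlier results of these data known. Alternatives varied overlap, rank limit, list length, chromosomes and gene assignment.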

Additional observations from a re-analysis of the deposited data

How the results depend on the processing

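No paired analysis was possible because each group is 1 list made from pooled samples, so replicate numbers belong to no values and no replicate was left out. Of 112 alternative values for gene-list shares, all stayed within the interval of the value reported. These intervals are wide, and counting a peak for every gene within 100 kb moved several shares by over 1.5 times, as given beside them. With the nearest gene within 20 kb the WT-only share was 6.06% for the definitive endoderm factors, 7.89% for endoderm epithelium, 15% for epiblast and neuroectoderm and 5.88% for ubiquitous genes. With 50% overlap the ΔHx-only share of blood and endothelium was 16.7%. The 4 motif shares under TNTTTAC lay above their intervals.

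The whole-list WT-only and ΔHx-only shares (42.6% and 30.5%) were 44.6% and 32.8% when 50% of the shorter peak had to overlap, and 40.6% and 28.3% when a peak within 500 bp counted. They were 36.9% and 29.0% with scores of at least 10, and 35.5% and 35.8% with lists of equal length. With the same minimum fold over background they were 32.9% and 37.6%, so the order of the genotypes turned. The top-20000 shares (19.1% and 13.3%) were 19.9% and 14.5% with 50% overlap, 20.0% and 15.8% with all ties included, and 22.2% and 20.7% with the other list cut to its top 30000. They were 6.48% and 1.86% for the top 5000 and 9.79% and 4.13% for the top 10000. The ΔHx-only share was 12.6% with 500 bp and 12.7% with X and Y. The share of WT-only peaks with a WT Middle and no ΔHx Middle peak (22.1%) was 34.9% in the top 5000, 27.9% in the top 10000 and 20.1% with Middle lists of equal length. The ΔHx-only counterpart (14.0%) was 9.68%, 8.47% and 16.5%. The cause was not tested, beyond the shorter lists these settings make. Without the densest bins all 6 shares stayed within their intervals.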
